A study of Arabidopsis thaliana with 10 samples.

Results

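ILR3 (AT5G54680), BHLH115 (AT1G51070), BHLH34 (AT3G23210) and BHLH121 (AT3G19860) encode basic helix-loop-helix (bHLH) transcription factors that act near the top of the iron-deficiency response of Arabidopsis thaliana. Their probe sets were found by gene ID in the array's platform annotation. Each gene had 1 single-gene probe set, which made 4 members among 17481 probe sets tested on 10 arrays. The RNA was total RNA from roots. Plants grew on B5 medium for 2 weeks before a final 3 days (72 h) on medium that held iron (+Fe) or lacked it (-Fe). Wild type (WT, Col) was measured on 2 arrays per medium and the mutant bts-3 on 3 arrays per medium, each labelled a biological replicate. The mutation bts-3 lies in BRUTUS (BTS), and the labels do not state its lesion. The BTS transcript was not analysed here, and the mutant label is therefore unchecked by it.

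As background, bHLH factors bind DNA as pairs. ILR3, BHLH115 and BHLH34 belong to subgroup IVc with BHLH104, and BHLH121, also called URI, belongs to subgroup IVb with PYE and BHLH11. Together the IVc factors and BHLH121 switch on a lower tier of regulators, among them the Ib factor BHLH101 and the small IRON MAN peptides, which in turn drive iron uptake by the root. BTS is an E3 ubiquitin ligase that binds iron and is known to bind ILR3 and BHLH115 and to promote their breakdown as proteins. The arrays measured transcripts only, so protein amounts were not seen. The comparison here asked whether the transcripts of these upstream factors differed with iron or with the mutation.

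No change of any of the 4 transcripts passed the test. There were 7 comparisons: iron within each genotype, genotype within each medium, the difference of the iron responses, and iron and genotype averaged over the other factor. Each was fitted with limma over all probe sets and a call required an adjusted p (Benjamini-Hochberg) under 0.05. Over the 28 tests of members, adjusted p ranged from 0.406 to 0.9997, and 2 tests, both of ILR3, had an unadjusted p under 0.05. These fits did not use the replicate numbers. With the replicate number as a block, tests of iron in BHLH115 and BHLH34 also had a limma unadjusted p under 0.05, with no call. That fit called 80 of 17481 probe sets for iron in WT and 78 averaged over genotypes, against 5 and 16 without the block. The share of all probe sets with an unadjusted p under 0.05 is not given for the blocked fit. Values are log2 expression, and a difference of 1 on that scale is a doubling.

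ILR3 had its highest levels on WT -Fe. It was at 11.20 and 11.02 on the WT +Fe arrays and at 11.76 and 11.58 on the WT -Fe arrays. The bts-3 +Fe arrays read 11.11, 11.18 and 11.33, and the bts-3 -Fe arrays 11.62, 11.13 and 11.51, in the order of replicates 1, 2 and 3. Both WT -Fe arrays lay above both WT +Fe arrays, whereas the bts-3 groups overlapped. On bts-3 -Fe, replicate 1 reached the WT -Fe range and replicate 2 lay within the bts-3 +Fe range.

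The log2 fold change of ILR3 on -Fe against +Fe was 0.56 in WT (SE 0.22, 95% interval 0.09 to 1.04, limma adjusted p = 0.507), a 1.48-fold difference. In bts-3 it was 0.21 (SE 0.18, interval -0.18 to 0.60, limma adjusted p = 0.9997). Averaged over genotypes it was 0.39 (SE 0.14, interval 0.08 to 0.69, limma adjusted p = 0.406). These intervals are not adjusted for the number of probe sets. An unadjusted p under 0.05 was found for 8.37% of all probe sets in the WT comparison and for 9.54% in the averaged one.

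BHLH115, the IVc factor closest to ILR3 in its pattern of group means here, had the same order of groups. Its levels were 8.88 and 8.98 on WT +Fe, 9.36 and 9.37 on WT -Fe, 8.82, 9.34 and 8.68 on bts-3 +Fe, and 9.35, 9.25 and 8.98 on bts-3 -Fe (replicates 1 to 3). The WT -Fe arrays were again above the WT +Fe arrays. In bts-3 the +Fe array of replicate 2 lay within the range of the -Fe arrays, and both arrays of replicate 3 were the lowest of their groups. The log2 fold change on -Fe was 0.44 in WT (SE 0.24, interval -0.09 to 0.97, limma adjusted p = 0.683) and 0.24 in bts-3 (SE 0.20, interval -0.19 to 0.68). Averaged over genotypes it was 0.34 (SE 0.16, interval -0.002 to 0.69, limma adjusted p = 0.528).

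BHLH34, known to pair with BHLH104 in activating the Ib bHLH genes, had the opposite order of group means. It was at 5.70 and 5.65 on WT +Fe and at 4.87 and 5.08 on WT -Fe. The bts-3 +Fe arrays read 5.55, 5.97 and 4.52, and the bts-3 -Fe arrays 5.35, 5.77 and 4.87 (replicates 1 to 3). Both WT -Fe arrays lay below both WT +Fe arrays, and the bts-3 arrays spanned more than the whole WT range. Its log2 fold change on -Fe in WT was -0.70 (SE 0.42, interval -1.62 to 0.22, limma adjusted p = 0.711), the largest in size of the 28 values for these genes. In bts-3 it was -0.02 (SE 0.34, interval -0.77 to 0.73).

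BHLH121, which partners the IVc factors, had no common direction in WT. Its levels were 9.36 and 9.54 on WT +Fe and 9.77 and 9.44 on WT -Fe, so that the groups overlapped. The bts-3 +Fe arrays read 9.55, 9.56 and 9.97, and the bts-3 -Fe arrays 9.28, 9.41 and 10.40 (replicates 1 to 3). The 2 highest values of all 10 arrays were both of bts-3 replicate 3. The log2 fold change on -Fe was 0.15 in WT (SE 0.34, interval -0.60 to 0.91, limma adjusted p = 0.930) and 0.002 in bts-3 (SE 0.28, interval -0.62 to 0.62).

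**Figure D1:**
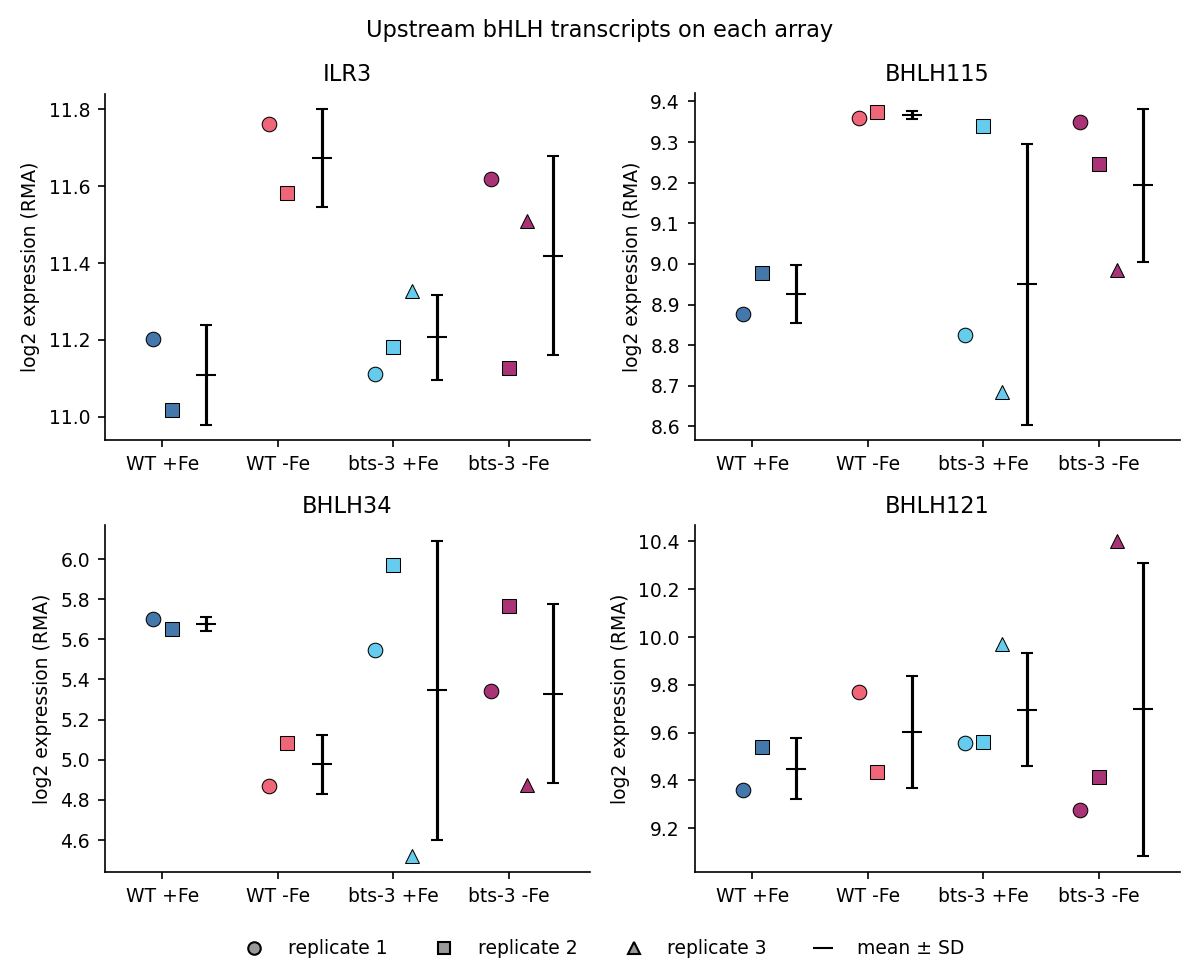
Log2 expression (y axis, 1 scale per gene) of the 4 genes in each group (x axis). Symbols are single arrays, shaped by replicate number, and the black bar is the group mean with its SD. In WT the arrays of both media do not overlap for ILR3, BHLH115 and BHLH34, and in bts-3 they overlap for every gene shown.

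Set against all probe sets, the separation of the WT groups was common. The arrays of the WT groups did not overlap for 3 of the 4 genes, 2 higher and 1 lower on -Fe, and for 44.3% of all probe sets tested, 23.2% higher and 21.1% lower. In bts-3 the media overlapped for all 4 genes, where 8.26% of all probe sets did not. Of all probe sets, 0.0286% were called in the WT comparison, 0.0229% in the bts-3 comparison and 0.0915% in the average over genotypes, against 0 of 4 genes here in each. The median log2 fold change of the 4 genes was 0.30 in WT and 0.11 in bts-3, beside 0.01 and 0.02 over all probe sets.

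Shoot markers had lower levels on WT -Fe than on WT +Fe. Of 4 shoot markers listed, RCA and LHCB4.1 were measured. The log2 of their summed level was 8.55 to 9.04 on WT +Fe and 7.41 to 7.82 on WT -Fe, and 8.46 to 8.51 and 7.51 to 8.60 on bts-3 +Fe and -Fe. Neither marker was called by limma, both had an unadjusted p under 0.05 in WT, and neither was near the lower quartile of the arrays (2.92 to 3.26). Their part in the values of ILR3, BHLH115 and BHLH34 was not tested. In bulk RNA, fewer cells of a type and less RNA per cell cannot be told apart.

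No difference between bts-3 and WT passed the test on either medium. With iron, bts-3 against WT gave log2 fold changes of 0.10 for ILR3 (SE 0.20, interval -0.34 to 0.53), 0.02 for BHLH115 (SE 0.22, interval -0.46 to 0.51), -0.33 for BHLH34 (SE 0.38, interval -1.17 to 0.51) and 0.25 for BHLH121 (SE 0.31, interval -0.45 to 0.94). The limma adjusted p of the 4 lay between 0.899 and 0.995. BHLH121 was the 1 gene whose arrays did not overlap, with all 3 bts-3 arrays above both WT arrays, and 29.3% of all probe sets did not overlap in this comparison, 13.5% with bts-3 higher. Called probe sets made up 0.269% of all.

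Without iron, the values were -0.25 for ILR3 (SE 0.20, interval -0.69 to 0.18), -0.17 for BHLH115 (SE 0.22, interval -0.66 to 0.31), 0.35 for BHLH34 (SE 0.38, interval -0.49 to 1.19) and 0.09 for BHLH121 (SE 0.31, interval -0.60 to 0.79). Adjusted p from limma lay between 0.809 and 0.968. All 3 bts-3 arrays of BHLH115 were below both WT arrays, the nearest at 9.35 and 9.36. Groups did not overlap for 19.5% of all probe sets, with bts-3 lower for 11.3%, and 0% were called by limma, although 6.65% had an unadjusted p under 0.05, none of the 4 genes among them. With the replicate number as a block in the fit, BHLH34 moved to 0.67 and had an unadjusted p under 0.05, with no call (limma adjusted p = 0.663). This block takes a number to be shared by WT and bts-3, which no label states.

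Averaging over both media gave the narrowest intervals for the mutation, in a fit that counts all arrays as independent. Same-numbered bts-3 arrays deviated together from their group means (r = 0.30, 0.51 and 0.39 across probe sets). For arrays that deviate together these intervals can be too narrow. The log2 fold change was -0.08 for ILR3 (SE 0.14, interval -0.39 to 0.23), so that a level 1.31-fold lower or 1.17-fold higher in bts-3 marks the ends of its interval. It was -0.08 for BHLH115 (SE 0.16, interval -0.42 to 0.27), with ends at 1.34-fold lower and 1.21-fold higher. For BHLH34 it was 0.01 (SE 0.27, interval -0.58 to 0.60), and for BHLH121 0.17 (SE 0.22, interval -0.32 to 0.66). For ILR3 and BHLH115, whose proteins BTS is known to bind, a doubling or halving of the transcript lay outside the interval. In this fit the upper ends for BHLH34 and BHLH121 were 1.52-fold and 1.58-fold. Both bts-3 replicate 3 arrays, counted as independent here, were the lowest of bts-3 for BHLH34 (4.52 and 4.87). They were the highest of all for BHLH121 (9.97 and 10.40). For these 2 genes the interval therefore cannot set aside a doubling. The BHLH34 average joins values of opposite sign, -0.33 with iron and 0.35 without. Within a medium its interval reached -1.17 with iron, beyond a halving, and 1.19 without iron, beyond a doubling. Limma called none of the 4 (adjusted p from 0.822 to 0.995, no unadjusted p under 0.05), and 0.16% of all probe sets. The block moved BHLH34 to 0.33 here (limma adjusted p = 0.5002). WT has no array numbered 3, so this blocked value rests on replicates 1 and 2, and on numbers being shared by WT and bts-3.

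Root hair markers had lower levels in bts-3. Of 3 listed, EXPA7 and EXPA18 were measured, with a log2 summed level of 9.99 to 10.21 over the 4 WT arrays and of 8.47 to 9.80 over the 6 bts-3 arrays. Neither was called, and their part in the values of the 4 genes was not tested. The cortex marker CO2 lay near the lower quartile of the arrays, and markers of endodermis and vascular tissue were not analysed here.

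No difference between the iron responses of the genotypes passed the test. The difference of the log2 fold changes, bts-3 minus WT, was -0.35 for ILR3 (SE 0.28, interval -0.97 to 0.26), -0.20 for BHLH115 (SE 0.31, interval -0.88 to 0.49), 0.68 for BHLH34 (SE 0.54, interval -0.50 to 1.87) and -0.15 for BHLH121 (SE 0.44, interval -1.13 to 0.83). Each had a limma adjusted p of 0.998, and 0.00572% of all probe sets were called. With the block, BHLH34 kept 0.68 and had an unadjusted p under 0.05, with no call (limma adjusted p = 0.753). For all 4 genes the mean response in bts-3 was smaller in size than in WT, and all 4 intervals include 0. Over all probe sets the median size of the response was smaller in bts-3 too, at 0.15 against 0.22 in WT. Each comparison above that uses a group shares those arrays with others, so the values are not independent of each other.

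**Figure D2:**
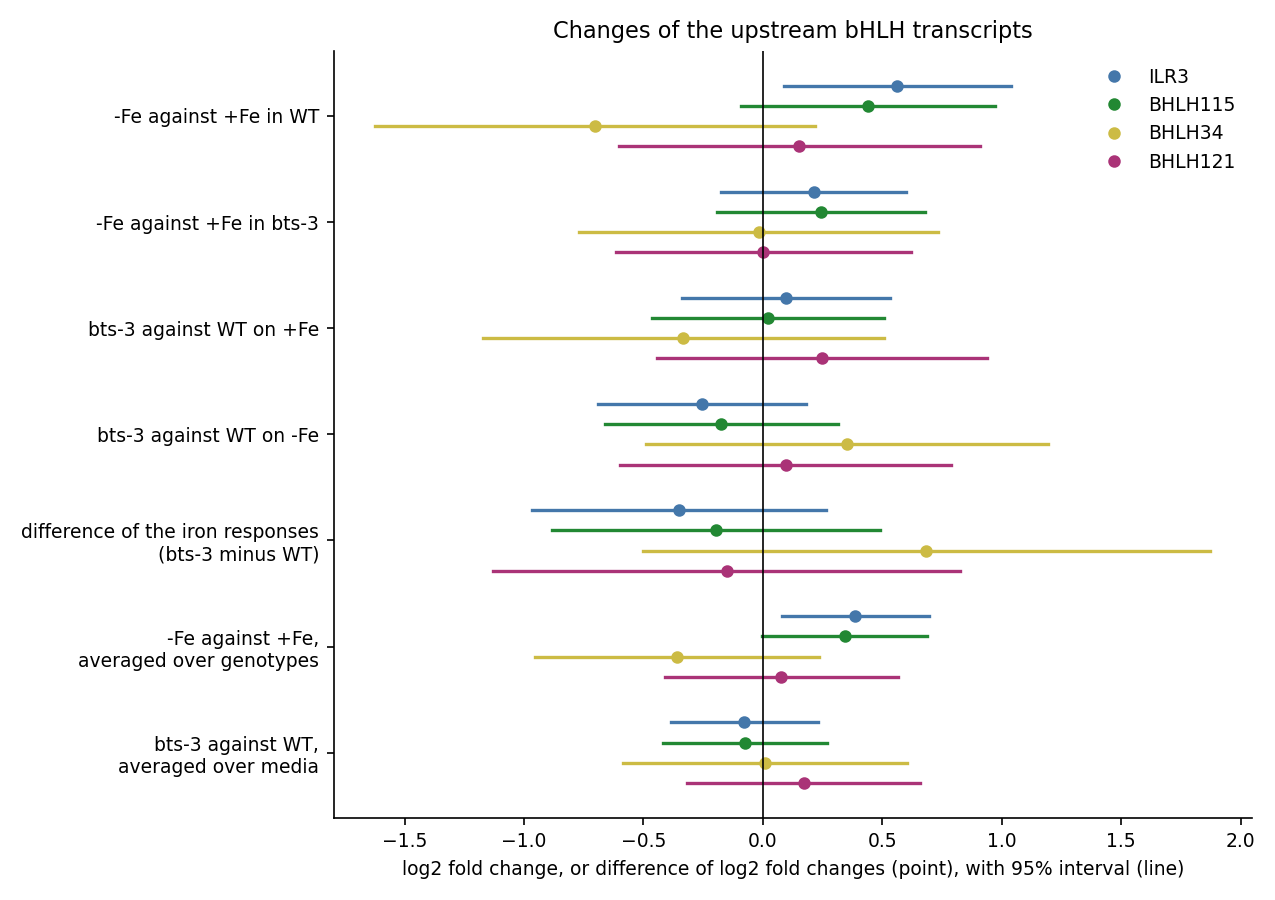
Log2 fold change (points; for the fifth row the difference of 2 log2 fold changes) with its 95% interval (lines) for the 4 genes in the 7 comparisons. Except for ILR3 in WT and on average over genotypes, every interval includes 0, and the intervals of BHLH34 are the widest.

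The differences between media varied among the bts-3 replicates. The -Fe array minus the +Fe array of the same number gave 0.51, -0.05 and 0.18 for ILR3 and 0.52, -0.09 and 0.30 for BHLH115 in replicates 1, 2 and 3. Both genes thus had their largest difference in replicate 1 and a slightly negative one in replicate 2. For BHLH34 the differences were -0.20, -0.20 and 0.35, and for BHLH121 -0.28, -0.15 and 0.43, each with a sign in replicate 3 unlike the other two. The -Fe array of replicate 1 also stood beside the WT -Fe arrays on the first principal component over all probe sets (42.0, against 44.2 and 22.1), and the other bts-3 arrays lay between -26.9 and -6.80.

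Replicate 3 of bts-3 set much of the spread of the other pair of genes. On its arrays BHLH34 had its lowest levels of bts-3 on both media (4.52 and 4.87), and BHLH121 its highest of all arrays (9.97 and 10.40). The residual SD of BHLH34 over the 10 arrays was 0.51, larger than for 91.5% of all probe sets, and that of BHLH121 was 0.40, larger than for 81.5%. For ILR3 and BHLH115 it was 0.18 and 0.23, larger than for 20.1% and 38.3%. Without both arrays of bts-3 replicate 3, a choice made after the data were seen, the log2 fold change of BHLH121 became -0.21 for iron in bts-3 and -0.26 for the mutation without iron. That of BHLH34 became 0.080 for the mutation with iron. None of these was called (limma adjusted p = 0.9966, 0.9864 and 0.9999).

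The other measured factors of the same subgroups were BHLH104 and PYE, and BHLH11 was not analysed here. BHLH104, the fourth IVc factor, had WT levels of 6.27 ± 0.29 with iron and 5.71 ± 0.23 without (SD over 2 arrays), and bts-3 levels of 6.27 ± 0.15 and 6.20 ± 0.26 (SD over 3 arrays). Its log2 fold change in WT was -0.56 (SE 0.24, limma adjusted p = 0.572, unadjusted p under 0.05). PYE, a IVb factor that restrains parts of the response and is itself induced by iron shortage, had 6.40 ± 0.16 and 7.32 ± 0.19 in WT, and 7.10 ± 0.23 and 7.20 ± 0.52 in bts-3. Its log2 fold change was 0.92 in WT (SE 0.31, limma adjusted p = 0.434) and 0.70 for bts-3 against WT with iron (SE 0.28, limma adjusted p = 0.489). So of the 6 measured IVb and IVc factors, none passed over all genes, where each comparison called at most 0.269% of all probe sets. By their values in WT, ILR3, BHLH115 and PYE were higher and BHLH34 and BHLH104 lower on -Fe. BHLH121 had overlapping groups and no common direction.

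The IVa factors, which are known to promote the breakdown of FIT, the main activator of iron uptake in the root, gave a similar count. All 4 listed were measured, BHLH18, BHLH19, BHLH25 and NAI1, and none was called in any of the 7 comparisons. The share of all probe sets called was 0% to 0.269% per comparison, so few calls are found for any small list. The log2 fold change of NAI1 in WT was -0.85 (SE 0.34, limma adjusted p = 0.532), and those of the others were 0.17 to 0.73. Their median was 0.29 in WT and -0.05 in bts-3. BHLH18 and BHLH25 lay below or near the lower quartile of the arrays.

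Genes of the lower tier were compared by their values in the same fits. BHLH101, the 1 measured gene of the list of Ib factors and FIT (1 of 5), was called in WT, with -Fe against +Fe at 4.46 (SE 0.54, limma adjusted p = 0.0378), and for the mutation with iron, at 3.71 (SE 0.50, limma adjusted p = 0.0157). ILR3 had 0.56 and 0.10 in these comparisons. A further call of BHLH101 was for iron averaged over genotypes, at 2.35 (SE 0.35, limma adjusted p = 0.0476), where ILR3 had 0.39. That call was lost when the unnamed probe sets were tested too (limma adjusted p = 0.05675). It was also lost after quantile normalization was done again (limma adjusted p = 0.05795). Within bts-3, iron gave 0.24 for BHLH101, beside 0.21 for ILR3 and 0.24 for BHLH115. The call of BHLH101 in WT was lost when any 1 of the 4 WT arrays was left out, and also when replicate 1 of bts-3 +Fe or replicate 2 of bts-3 -Fe was left out (limma adjusted p from 0.0568 to 0.457), although its log2 fold change stayed between 4.30 and 4.62. It was also lost when the unnamed probe sets were tested too (limma adjusted p = 0.0533). The call for the mutation was lost when either WT +Fe array or replicate 1 of bts-3 +Fe was left out (limma adjusted p from 0.0871 to 0.269). The WT +Fe arrays enter each comparison in which BHLH101 was called. On them BHLH101 lay at 3.15 and 3.47, near the lower quartile of the arrays, where RMA compresses differences. The sizes of the called values are therefore uncertain.

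The IRON MAN genes IMA1 and IMA2 (2 of 3 listed) had log2 fold changes of 2.92 and 4.32 for iron in WT, of 1.70 and 2.12 in bts-3, and of 0.80 and 1.79 for the mutation with iron, with no call. IMA2 lay at 2.88 and 2.86 on WT +Fe, below the lower quartile of those arrays (2.96 and 2.98), so its values against WT +Fe have no exact size. The BTS-like ligases BTSL1 and BTSL2 had 2.40 and 1.95 for iron in WT, 0.21 and 0.37 in bts-3, and 1.57 and 0.87 for the mutation with iron, also with no call. The coumarin genes (3 of 6 listed, 4 probe sets) ranged from 1.11 to 6.19 in WT, from 0.10 to 0.65 in bts-3 and from 0.04 to 4.27 for the mutation with iron, and none was called. The transporter MTP8, the 1 measured of 12 genes of iron uptake and transport, had 5.70, 1.09 and 2.12, with no call. On bts-3 +Fe and -Fe it read 7.54 and 9.48 in replicate 1, and 5.37 and 5.56 in replicate 3. Of all probe sets, these 3 comparisons called 0.0286%, 0.0229% and 0.269%. The iron storage list was not analysed here.

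**Figure D3:**
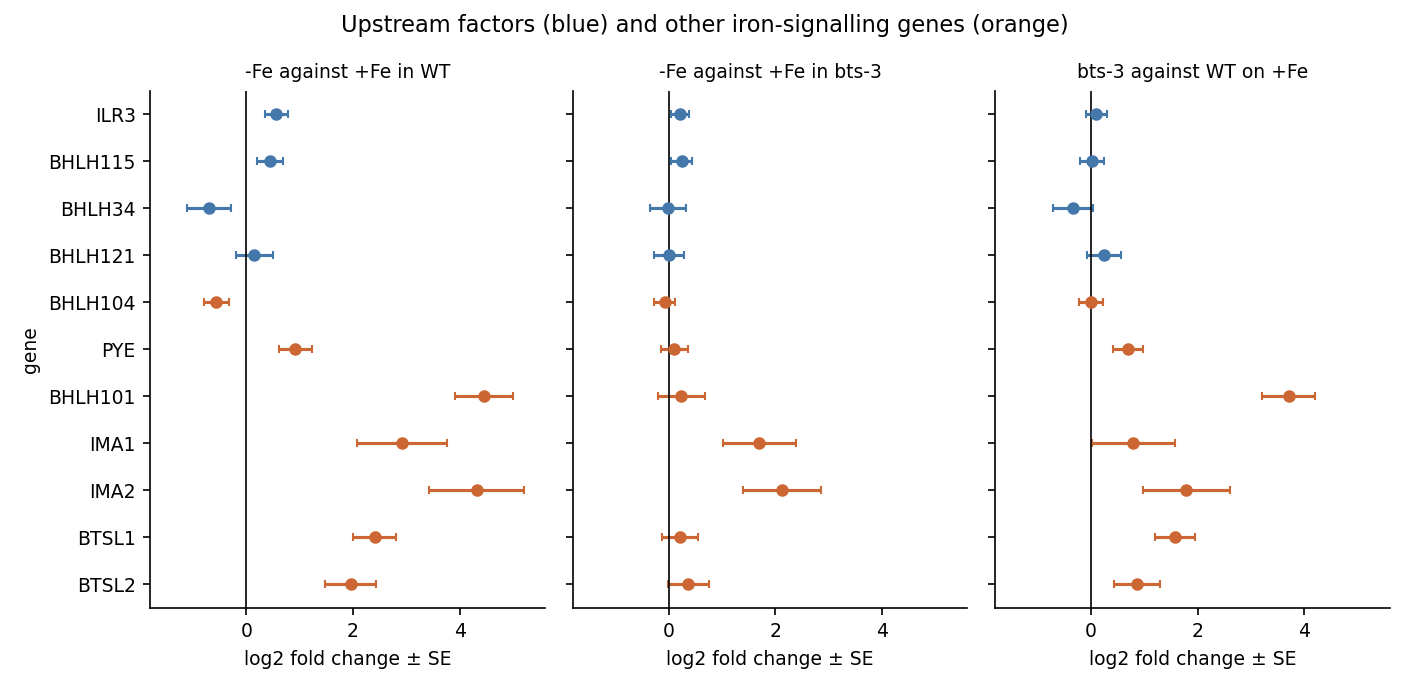
Log2 fold change with its SE (x axis) for the 4 upstream factors (blue) and for BHLH104, PYE, BHLH101, IMA1, IMA2, BTSL1 and BTSL2 (orange) in 3 comparisons. The blue points lie between -0.70 and 0.56, and BHLH101 lies at 4.46 in WT and, between genotypes with iron, at 3.71.

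The 4 reference genes measured of 6 listed (GAPC2, SAND, TIP41 and UBC21) had log2 fold changes between -0.02 and 0.12 in WT on -Fe and between -0.28 and 0.18 for bts-3 against WT with iron. The values of ILR3, BHLH115 and BHLH34 in WT were larger in size than any of these, and those of the mutation with iron were of a like size for ILR3, BHLH115 and BHLH121. Against all probe sets, the WT values of ILR3, BHLH115 and BHLH34 were larger in size than 87.9%, 79.9% and 92.9%.

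Across the 10 arrays, 10 relations were computed: the 6 pairs of the 4 genes, and each gene with the mean of BHLH101, IMA1 and IMA2. BHLH115 followed that mean most closely. Pearson's r was 0.74 (permutation p = 0.0161, adjusted 0.106) and Spearman's rho was 0.85 (permutation p = 0.00275, adjusted 0.0275), both two-sided. It was 0.86 without the 2 arrays farthest from the median of BHLH115 and 0.63 for deviations from the group means. ILR3 gave r = 0.69 (permutation p = 0.0310, adjusted 0.106) and rho = 0.64, and 0.15 for deviations from the group means. The relation of ILR3 thus lay between the groups more than within them. The groups differ by design in the 3 target genes, so arrays are not exchangeable under these permutations.

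BHLH34 and BHLH121 ran in opposite directions, with r = -0.64 (permutation p = 0.0366, adjusted 0.106) and rho = -0.52. The value was -0.57 without the 2 arrays farthest from the median of BHLH34 and -0.31 without both arrays of bts-3 replicate 3, so that the relation rests in part on those arrays. ILR3 and BHLH34 gave r = -0.66 (permutation p = 0.0424, adjusted 0.106) and rho = -0.64, with -0.58 within groups. ILR3 and BHLH115 gave r = 0.49 (permutation p = 0.144, adjusted 0.288), and -0.18 within groups, so their like order of group means did not carry over to arrays of 1 group. Within groups, BHLH115 and BHLH34 gave 0.80, beside 0.22 over all arrays, and BHLH121 gave -0.79 with the mean of the 3 target genes, beside -0.16. Without both arrays of bts-3 replicate 3, r over the remaining arrays was -0.39 for BHLH115 and BHLH34 and -0.12 for BHLH121 with that mean. It was -0.86 for ILR3 and BHLH34 and 0.68 for ILR3 and BHLH115. The values within groups were not computed without those arrays, so their dependence on replicate 3 was not tested. The other 5 relations had adjusted permutation p between 0.526 and 0.672 for Pearson's r.

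**Figure D4:**
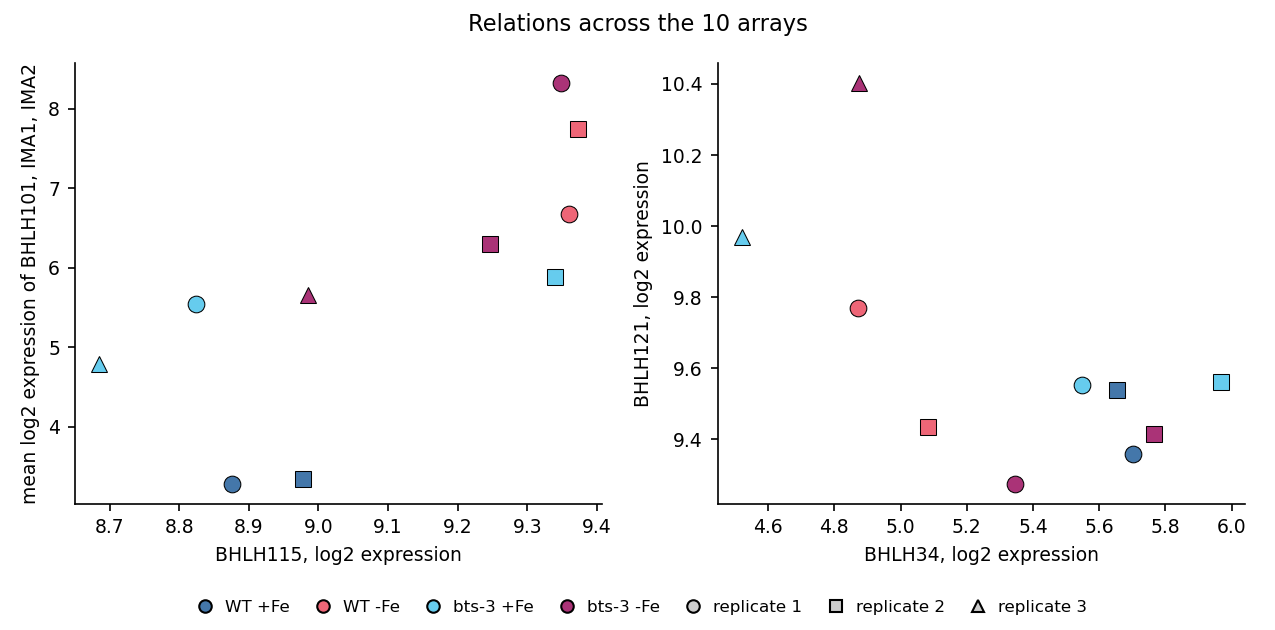
Left, BHLH115 (x axis) against the mean of BHLH101, IMA1 and IMA2 (y axis), and right, BHLH34 (x axis) against BHLH121 (y axis), all in log2 expression, with 1 symbol per array, coloured by group and shaped by replicate number. The bts-3 replicate 3 arrays (triangles) hold the 2 highest values of BHLH121.

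The probe sets most like each gene over the 10 arrays were sought among 16718 other single-gene probe sets by Pearson's r. For ILR3 they were AT3G61035 (r = 0.96), AT5G51250 (0.95) and AT1G63540 (0.94). For BHLH115 they were AT2G21840 (0.97), AT3G56930 (0.92) and AT3G61810 (0.92). For BHLH34 they were AT1G68360, AT1G60110 and AT3G56080 (0.95 each), and for BHLH121 AT1G49170 (0.95), AT2G42370 (0.93) and AT3G13780 (0.93). No gene was named for more than 1 of the 4, and none belonged to the pathway lists. Within groups, as deviations from the group means, the r of these 12 lay between 0.83 and 0.97. The highest values among so many candidates are a description only.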

How the data were processed

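The authors deposited 1 log2 value per probe set and array. Per the submitters' processing notes, RMA values came from Affymetrix Expression Console, whose version is not given in the sources used here. RMA sets arrays to a common distribution and compresses changes near background. Labelling started from 100 ng of RNA, per the labels' protocols. Array medians were 5.27 to 5.45. For arrays, their number limits the precision. Of 28583 probe sets, 16722 had 1 gene, 759 several and 11102 none in the platform annotation used here. The 17481 named ones were tested without a filter. Gene IDs of 16574 matched the RefSeq table of TAIR10.1, used for names only. Coordinates are left out because the array's build is not given in the sources used here.

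Group means of all 10 arrays were fitted with limma 3.58.1 in R 4.3.3 (lmFit, contrasts.fit, eBayes; 6 residual and 4.57 prior degrees of freedom), two-sided, with Benjamini-Hochberg adjustment over all probe sets within a comparison. Intervals use the moderated SE. Permutation tests of correlations drew 100000 resamples. The fit was tested on simulated data.

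The members, gene lists, comparisons and tests were chosen with earlier results of these data known. Of 43 pathway genes besides the members, 15 had a single-gene probe set, and of 14 markers 5 had one. Named genes are the members, measured genes of these lists, and the 3 of highest r per member.

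Same-numbered +Fe and -Fe arrays of bts-3 deviated together from their group means (r = 0.30, 0.51 and 0.39 across probe sets), and by that check the bts-3 numbers pair arrays, though no label says so. For WT the same check gave r = -0.11 for equal numbers, under the 0.1 required, and 0.11 for crossed numbers. With 2 arrays per group these 2 values must be opposite, so the check cannot tell whether WT numbers pair arrays. Alternatives were replicate blocks, subsets of arrays, normalization, filters, weights, priors and thresholds.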

Additional observations from a re-analysis of the deposited data

How the results depend on the processing

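No alternative gave a call for any of the 4 genes in any of the 7 comparisons, and the lowest adjusted p of all was 0.211, for BHLH34 in WT with a replicate block in bts-3 alone. Every value of ILR3 kept its direction under the alternatives run, as did those of BHLH115 and BHLH34 for iron in WT. For ILR3 in WT the range was 0.47 to 0.66, for BHLH115 0.39 to 0.49 and for BHLH34 -0.81 to -0.60. Values that were near 0, or rested on bts-3 replicate 3, changed sign without passing the test, and the cause was not tested.

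With the replicate block, BHLH121 turned to -0.15 for bts-3 against WT on -Fe and to -0.074 averaged over media, and BHLH115 to 0.043 averaged over media. BHLH34 moved most, from 0.35 to 0.67 for bts-3 against WT on -Fe and from 0.009 to 0.33 averaged over media. These blocked genotype values take a number to be shared by WT and bts-3, which no label states. The blocked values of ILR3 in WT (0.56, limma adjusted p = 0.348) and BHLH34 in WT (-0.70, 0.307) were not called, and pairing changed no call. The blocks within genotype, random, in bts-3 alone and with WT numbers crossed gave 0 calls too. Normalized again by quantiles, BHLH34 turned to 0.0105 for iron in bts-3 and BHLH115 to -0.0027 for bts-3 against WT on +Fe.

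Leaving out 1 array at a time gave -0.17 to 0.16 for BHLH115 and -0.64 to 0.080 for BHLH34 for bts-3 against WT on +Fe, and -0.15 to 0.22 for BHLH34 averaged over media. For iron it gave -0.43 to 0.29 for BHLH34 in bts-3, and for BHLH121 -0.013 to 0.32 in WT, -0.35 to 0.21 in bts-3 and -0.10 to 0.18 averaged over genotypes. BHLH121 ranged from -0.26 to 0.31 for bts-3 against WT on -Fe, from -0.0059 to 0.28 averaged over media, and from -0.50 to 0.060 for the difference of the responses.

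Without both bts-3 replicate 3 arrays, chosen after seeing the data, BHLH121 had -0.21 for iron in bts-3, -0.030 averaged over genotypes, -0.26 for bts-3 against WT on -Fe and -0.074 averaged over media. BHLH34 then had 0.080 for bts-3 against WT on +Fe, and BHLH115 0.043 averaged over media. For bts-3 against WT averaged over media, these values equal the blocked ones above. Without both replicate 1 arrays, also chosen later, BHLH34 had 0.0755 for iron in bts-3 and -0.0455 for bts-3 against WT averaged over media. The count over all probe sets was less stable: the 5 called for iron in WT were 80 with the replicate block, 157 from the WT arrays alone and 101 with array weights, and the 47 for bts-3 against WT on +Fe were 118, 101 (arrays of both groups alone) and 279. Leaving out 1 array gave 0 to 88 calls for iron in WT, with 0 without any 1 WT array, without bts-3 +Fe replicate 1 or without bts-3 -Fe replicate 2. For bts-3 against WT on +Fe it gave 4 to 93, with 4 when WT +Fe replicate 2 was left out, 6 for WT +Fe replicate 1 and 10 for replicate 1 of bts-3 +Fe. At an adjusted p under 0.01 the counts were 0 and 8.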
